A study of Homo sapiens with 9 samples.

Results

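The genes described here are those that unedited Jurkat cells expressed and that both EZH2-edited lines held at a low level. They were chosen from the measured values: a mean of 3 FPKM or more over the 3 WT libraries, and a mean in KO1 and a mean in KO2 each at most 1/3 of the WT mean. FPKM counts sequenced fragments per length of transcript and per size of library, which allows levels of different genes to be set side by side; whether the libraries were scaled further is not given in the sources used here. Of 26190 rows with values, 9635 reached the WT level, 192 of these were low enough in KO1, 131 in KO2 and 115 in both. Small nucleolar RNAs and microRNAs (22 rows), the CD1 family (3 rows) and 12 single genes (DNTT, ADM, PFKFB4, ALDOC, NDRG1, BHLHE40, ANKRD37, EGR1, IL7R, THEMIS, CD4 and TP53INP1) were then left out by name, which leaves 78 genes. Because KO1 against WT and KO2 against WT chose the genes, their differences from WT are given as a description without a test. The comparison of KO2 with KO1 was not itself a criterion of the choice and is the one that is tested. The choice still bears on it, because both means were capped at 1/3 of WT and genes low in a single line were left out. This can limit the size and the number of differences between the edited lines. It can also bear on their direction, as more genes were low enough in KO1 than in KO2, and this was not tested.

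The data are polyadenylated RNA from Jurkat cells, an established human line of T-cell acute lymphoblastic leukaemia, grown in complete RPMI medium and taken during exponential growth. The lines EZH2-KO1 and EZH2-KO2 carry CRISPR/Cas9 edits aimed at EZH2, and EZH2-WT is the unedited counterpart, with 3 libraries each and no treatment in any group. There is 1 line per edit, so p-values measure the spread between cultures of a line and not between independent edits, and whether a line is a clone is not given in the sources used here. EZH2 is the catalytic subunit of Polycomb repressive complex 2 (PRC2), which methylates histone H3 at lysine 27 and keeps its target genes low. Among the genes low in the edited lines are known targets of hypoxia-inducible factor (HIF), a transcription factor that is degraded when oxygen is plentiful and that otherwise raises genes of glucose use, glycogen storage and mitochondrial turnover. Others encode surface receptors and adaptors by which T cells adhere, bind partner cells and pass on receptor signals.

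The EZH2 transcript itself was present throughout, at 108, 107 and 103 FPKM in the libraries labelled KO1, 87.9, 89.9 and 90.7 in those labelled KO2, and 74.4, 77.6 and 79.5 in WT. It was higher in both edited lines, which does not check an edit that the messenger RNA survives, and the directions given below depend on the sample labels being right. FPKM summed to between 417737 and 439704 per library, with 11028 to 11415 genes at 1 FPKM or more, and the depth in reads is unknown. All 10 T-lineage markers were expressed, with summed levels of 1345 to 1489 FPKM in KO1, 1569 to 1606 in KO2 and 1547 to 1657 in WT. Single markers differed more than the sum: the adhesion receptor gene CD2 averaged 90.6 ± 3.59 FPKM in KO1, 4.38 ± 0.789 in KO2 and 35.8 ± 0.774 in WT, and CD5, an inhibitory co-receptor, 14.5 ± 0.542 FPKM in KO1, 18.7 ± 0.764 in KO2 and 34.9 ± 2.45 in WT. Of 6 B-lineage markers, 2 averaged 1 FPKM or more (CD79A and BLK), with sums of 50.0 to 59.5 FPKM in KO1, 19.6 to 23.0 in KO2 and 26.7 to 31.4 in WT, while CD22, CD79B, MS4A1 and PAX5 were below 1 in every library. All 8 myeloid markers were below 1 FPKM in every library, and none of 7 erythroid markers averaged 1. Of 8 stromal and epithelial markers 1 did (COL1A1), with list sums of 1.54 to 2.29 FPKM in KO1, 1.37 to 1.65 in KO2 and 0.462 to 0.654 in WT. In bulk RNA of this kind, fewer cells expressing a gene and less RNA per cell cannot be told apart.

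WT means of the 78 genes ran from 3.15 to 212 FPKM with a median of 12.5, against a median of 17.0 over all rows at 3 FPKM or more, so the set was not drawn from the most abundant transcripts. There were 10 genes above 100 FPKM in WT, 31 between 10 and 100, and 37 below 10. The level left ran from 2.77% to 33.2% of WT in KO1 with a median of 20.6%, and from 0% to 33.2% in KO2 with a median of 23.4%. No library of either edited line reached the lowest WT library for any of the 78 genes, which the thresholds favour and which supports nothing. The share of all tested genes with such a gap was not computed. By another measure, 31.9% of all 11737 genes tested with limma were called lower in KO1 than in WT and 26.6% lower in KO2. At most 1/10 of the WT level remained for 15 genes in KO1, for 7 in KO2 and for 5 in both. The mean was under 1 FPKM for 22 genes in KO1 and 20 in KO2, 15 of them in both lines. The genes fell into 8 groups by known role, assigned with their values in view: 11 of the hypoxia response and glucose use, 13 of the leukocyte surface, adhesion and adaptors, 12 of receptors, kinases and transcription, 8 of neuronal function and ion transport, 8 of organelle maintenance and autophagy, 3 inducible by interferon or retinoids, 11 long non-coding RNAs and 12 others.

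**Figure D1:**
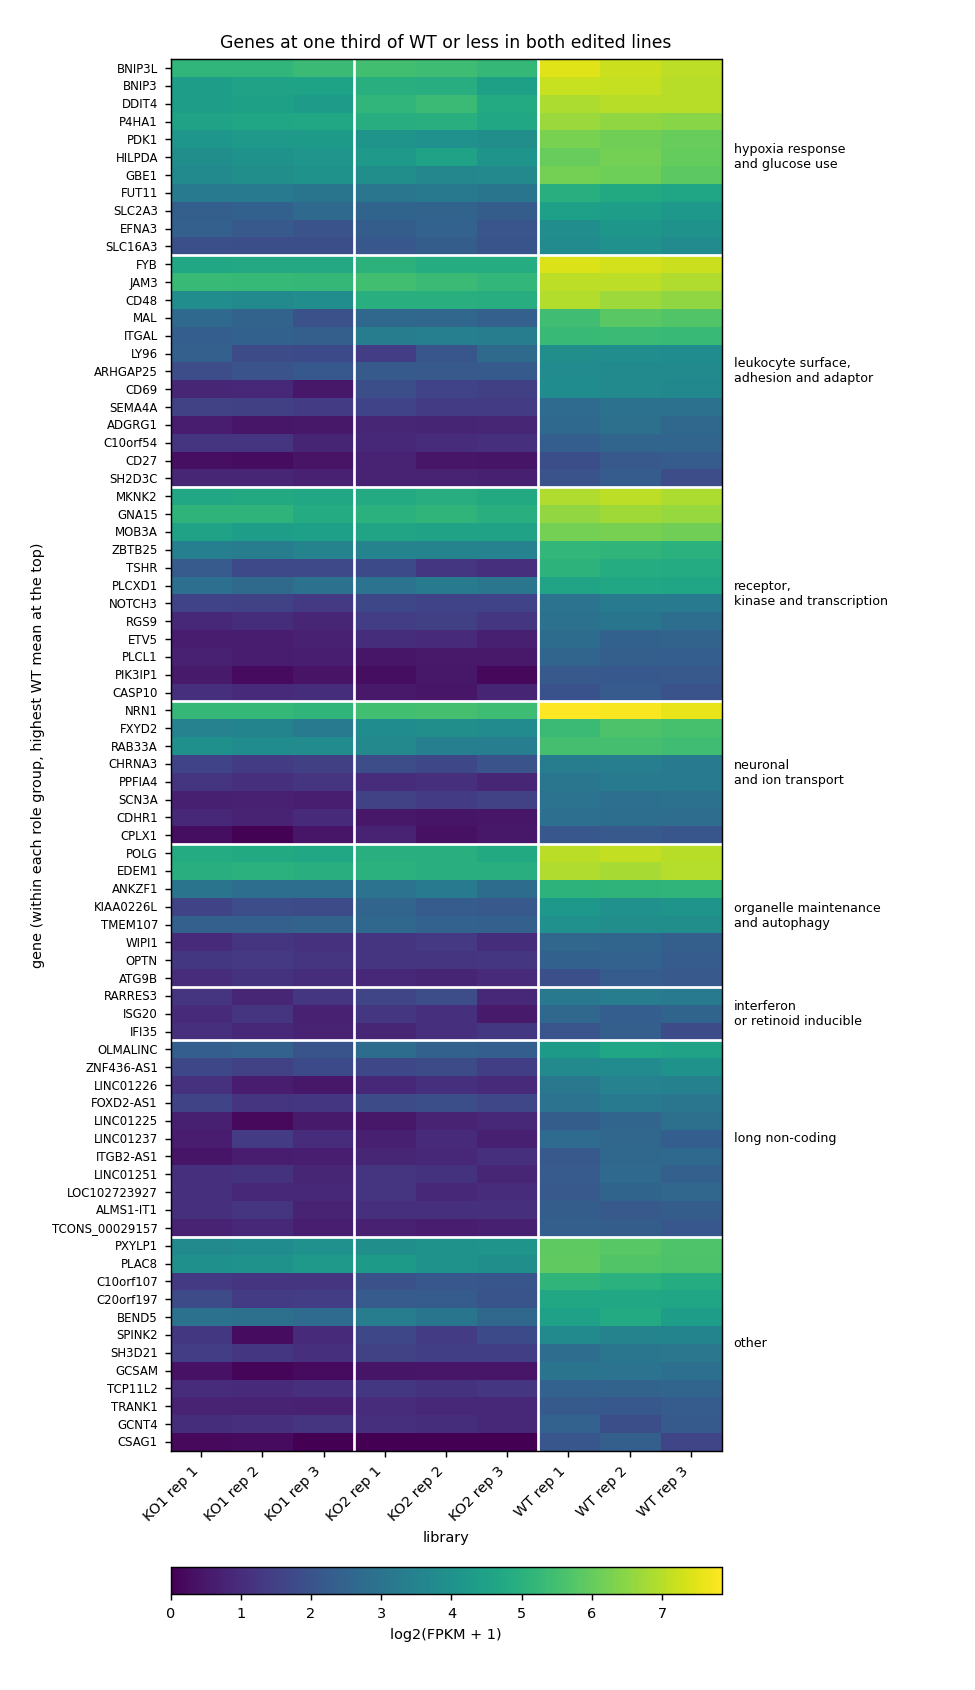
Levels of all 78 genes in each of the 9 libraries as log2(FPKM + 1), darker for lower values, with libraries of KO1, KO2 and WT from left to right and genes sorted by WT mean within each role group. The WT columns are the brightest in every row, from a WT mean of 212 FPKM for NRN1 down to 3.15 FPKM for SH2D3C, and CSAG1 is listed at 0 in all 3 KO2 libraries.

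The hypoxia and glucose group held some of the most abundant members, with WT means of 13.5 to 152 FPKM and a median of 66.5. Between 15.4% and 30.8% of the WT level was left in KO1 (median 24.0%) and between 18.6% and 30.2% in KO2 (median 25.9%). BNIP3L, a receptor on the outer mitochondrial membrane that marks mitochondria for autophagy, had 35.1, 35.1 and 40.1 FPKM in KO1, 43.0, 41.3 and 36.3 in KO2, and 177, 147 and 132 in WT. Its relative BNIP3, with the same function, had 19.9, 22.0 and 22.2 FPKM in KO1, 29.0, 28.5 and 20.9 in KO2, and 146, 143 and 128 in WT. KO2 replicate 3 lay inside the KO1 range for both receptors, so their KO1 and KO2 libraries overlapped. DDIT4, a stress-induced inhibitor of the growth-controlling kinase complex mTORC1, had 20.0, 21.2 and 19.3 FPKM in KO1, 34.5, 39.6 and 26.9 in KO2, and 118, 127 and 127 in WT. Here the KO2 libraries were all above the KO1 libraries, and KO2 replicate 3 was again the lowest of its group.

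Enzymes of metabolism and protein modification were low as well. P4HA1, a catalytic subunit of collagen prolyl hydroxylase, had 21.9, 23.2 and 24.5 FPKM in KO1, 28.6, 30.2 and 25.1 in KO2, and 99.8, 91.7 and 86.6 in WT. PDK1, the kinase that shuts pyruvate out of the mitochondrial acid cycle by blocking pyruvate dehydrogenase, had 16.6, 17.8 and 18.3 FPKM in KO1, 15.6, 14.8 and 13.6 in KO2, and 76.4, 70.5 and 64.2 in WT. The edited lines separated in opposite directions for this pair, with KO2 above KO1 in every library for P4HA1 and below it in every library for PDK1. GBE1, the glycogen branching enzyme, had 12.5, 13.6 and 15.1 FPKM in KO1, 13.6, 11.5 and 11.9 in KO2, and 73.2, 67.9 and 57.6 in WT, with the edited lines overlapping. HILPDA, a lipid droplet protein that restrains lipid breakdown, had 13.7, 14.9 and 16.0 FPKM in KO1, 17.8, 22.0 and 15.6 in KO2, and 64.2, 73.3 and 62.2 in WT, with KO2 replicate 2 the highest edited library.

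Transport and surface members of the group lay lower. SLC2A3, a high-affinity glucose transporter, had 4.21, 4.41 and 5.43 FPKM in KO1, 4.83, 4.67 and 4.0 in KO2, and 20.4, 19.8 and 17.3 in WT, and how reads were shared with its near-identical paralogue SLC2A14 is not given. SLC16A3, an exporter of lactate, had 2.77, 2.67 and 2.69 FPKM in KO1, 3.41, 4.02 and 3.08 in KO2, and 12.9, 14.8 and 12.9 in WT. The KO2 libraries were all above the KO1 libraries for the lactate exporter and overlapped with them for the glucose transporter. EFNA3, a ligand of Eph receptor kinases, was left at 24.0% of WT in KO1 and 25.6% in KO2, and FUT11, a fucosyltransferase, at 30.8% of WT in KO1 and 28.7% in KO2. Across this group KO2 replicate 3 was the lowest KO2 library for 10 of 11 genes, WT replicate 3 the lowest WT library for 9 of 11 and WT replicate 1 the highest for 7. In KO1 the order differed, with KO1 replicate 3 the highest KO1 library for 7 of 11 genes and the lowest for 3.

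**Figure D2:**
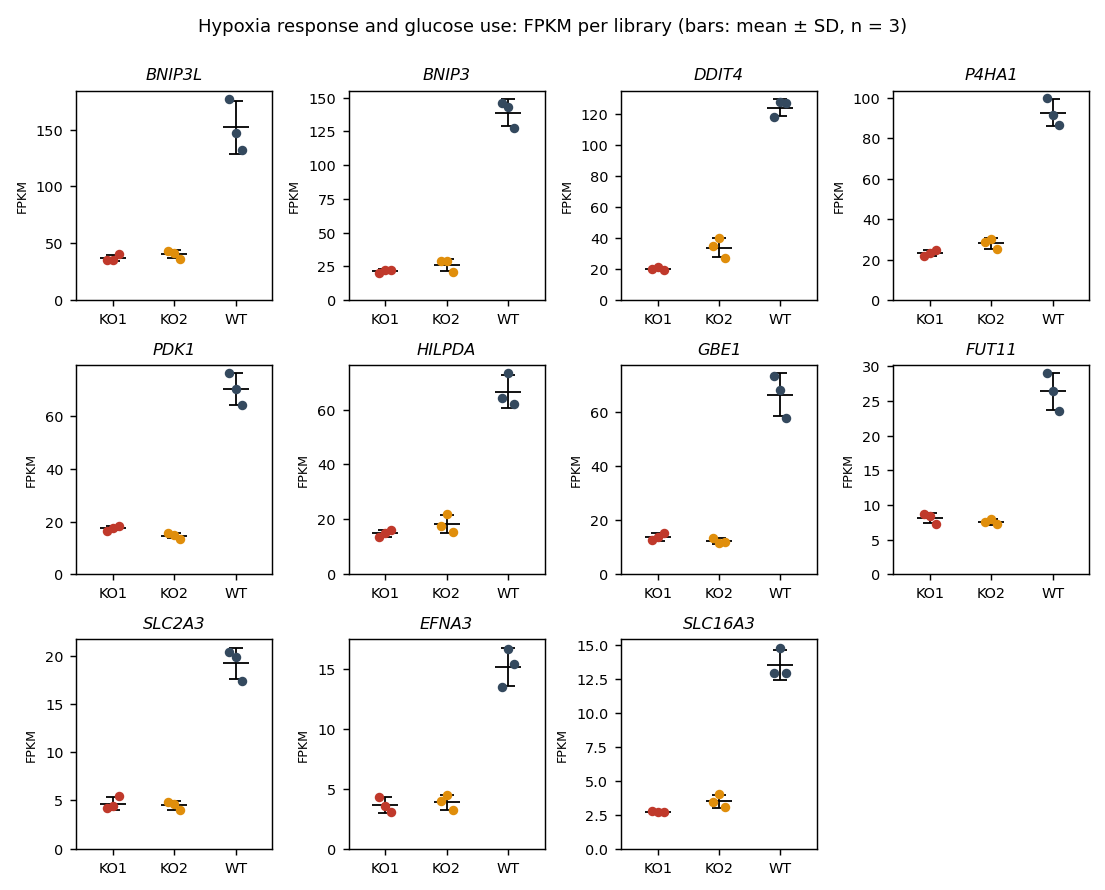
FPKM of the 11 genes of the hypoxia response and glucose use in each library (points), with the mean ± SD of 3 libraries per group, for KO1, KO2 and WT from left to right. For each gene both edited lines sit at 30.8% of the WT mean or lower, and DDIT4, P4HA1 and SLC16A3 have all KO2 points above all KO1 points.

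Promoters were looked at for the letters ACGTG, the core of the element to which HIF binds, on either strand and from 250 bases before to 50 bases after each listed start in RefSeq on GRCh38.p14. These letters are also part of CACGTG, the E-box that many other factors recognise. Only 57 of the 78 genes (73.1%) matched the promoter table, below the 80% needed for a statement about all of them, so no share over the set is given. Of the 11 hypoxia and glucose genes, 8 were in the table, also below 80%, so the count holds for these 8 only. Of them, 7 had the letters at a listed start (BNIP3, DDIT4, P4HA1, PDK1, GBE1, FUT11 and SLC16A3, not EFNA3), beside 24.9% of the 27305 genes in the table. The group was assembled by known role in the hypoxia response with values in view, so setting these genes beside all genes tests nothing. A match is a description of the sequence, not a site shown to be bound. The stretches below show 5 of these genes, 5′ to 3′ along the gene, with each match in capitals: BNIP3 (chr10:131981874-131982173, minus strand), DDIT4 (chr10:72273674-72273973, plus strand), P4HA1 (chr10:73096817-73097116, minus strand), PDK1 (chr2:172555840-172556139, plus strand) and GBE1 (chr3:81761596-81761895, minus strand).
BNIP3: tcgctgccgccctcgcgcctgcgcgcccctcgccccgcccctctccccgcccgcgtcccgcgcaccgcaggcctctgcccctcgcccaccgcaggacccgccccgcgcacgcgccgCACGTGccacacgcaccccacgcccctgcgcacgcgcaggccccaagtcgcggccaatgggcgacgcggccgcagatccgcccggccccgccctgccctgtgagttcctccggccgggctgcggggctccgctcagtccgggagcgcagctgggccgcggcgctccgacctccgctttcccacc
DDIT4: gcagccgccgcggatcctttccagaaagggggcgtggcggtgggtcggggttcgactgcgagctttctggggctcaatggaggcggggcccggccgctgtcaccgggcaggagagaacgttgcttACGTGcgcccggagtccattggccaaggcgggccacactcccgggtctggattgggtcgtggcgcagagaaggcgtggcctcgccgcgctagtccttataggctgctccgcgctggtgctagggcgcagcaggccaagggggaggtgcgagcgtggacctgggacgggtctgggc
P4HA1: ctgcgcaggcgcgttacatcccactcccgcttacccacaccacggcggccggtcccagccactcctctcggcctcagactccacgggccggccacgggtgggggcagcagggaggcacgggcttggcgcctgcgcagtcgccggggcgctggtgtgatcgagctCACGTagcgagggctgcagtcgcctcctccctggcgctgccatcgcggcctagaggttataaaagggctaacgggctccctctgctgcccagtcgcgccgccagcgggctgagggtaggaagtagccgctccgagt
PDK1: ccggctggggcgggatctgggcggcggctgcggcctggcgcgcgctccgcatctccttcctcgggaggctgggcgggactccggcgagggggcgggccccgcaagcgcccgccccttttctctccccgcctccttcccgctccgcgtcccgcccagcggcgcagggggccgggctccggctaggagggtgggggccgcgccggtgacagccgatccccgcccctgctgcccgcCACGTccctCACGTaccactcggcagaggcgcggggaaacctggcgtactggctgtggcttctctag
GBE1: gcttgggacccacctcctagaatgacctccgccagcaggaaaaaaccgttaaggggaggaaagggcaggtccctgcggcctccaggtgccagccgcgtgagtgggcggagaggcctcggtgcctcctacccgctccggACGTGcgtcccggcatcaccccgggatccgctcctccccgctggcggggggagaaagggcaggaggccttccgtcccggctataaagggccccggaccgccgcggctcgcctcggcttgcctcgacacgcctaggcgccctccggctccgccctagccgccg

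In BNIP3 the capitals cover CACGTG, in which ACGTG is read once on each strand, 134 and 133 bases before the start. The match lies 125 bases before the start in DDIT4, 86 in P4HA1 and 112 in GBE1, and PDK1 has a pair of matches, 17 and 8 bases before it. PDK1 has another listed start (chr2:172555123-172555422, plus strand) whose stretch holds no match. Outside the hypoxia and glucose group some members hold matches at their first listed start, among them TRANK1, ISG20, PPFIA4 and MKNK2. Others do not: the promoters of NRN1 (chr6:6003976-6004275, minus strand), the gene with the highest WT level of the 78, and CD48 (chr1:160711773-160712072, minus strand), the gene with the largest difference between the edited lines on the log2(FPKM + 1) scale, hold no match, which says only that the letters are not in these windows.
NRN1: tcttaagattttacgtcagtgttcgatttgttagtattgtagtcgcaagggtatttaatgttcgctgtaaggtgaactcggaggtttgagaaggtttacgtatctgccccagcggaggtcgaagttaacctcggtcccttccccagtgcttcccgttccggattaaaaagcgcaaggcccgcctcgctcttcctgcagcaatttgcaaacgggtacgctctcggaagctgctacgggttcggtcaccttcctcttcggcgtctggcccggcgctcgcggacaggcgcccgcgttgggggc
CD48: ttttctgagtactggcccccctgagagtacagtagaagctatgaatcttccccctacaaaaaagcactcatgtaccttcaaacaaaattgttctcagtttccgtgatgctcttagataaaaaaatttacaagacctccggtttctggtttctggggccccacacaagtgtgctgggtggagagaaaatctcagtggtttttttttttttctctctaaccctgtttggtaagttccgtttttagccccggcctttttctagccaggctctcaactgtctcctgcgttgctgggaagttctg

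These stretches also differ in base composition. G and C made up 80.7% of the BNIP3 stretch, with 48 CG dinucleotides, 77.0% of that of PDK1, with 38, and 55.7% of that of NRN1, with 28. CD48 had 44.7% and 5 CG dinucleotides, below the median of 14 over the first listed promoter of each gene in the table.

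Lists of related genes were counted without the 78 and, a step added after seeing the data, without the 12 genes that met the thresholds but were left out by name (of the hypoxia list ADM, PFKFB4, ALDOC, NDRG1, BHLHE40 and ANKRD37). Of 22 such genes of the hypoxia response, 19 were lower and 1 was higher in KO1 than in WT, with a median log2 fold change of -0.91 against 0.02 over all tested genes, of which 31.9% were called lower and 35.6% higher. In KO2, 20 were lower and 1 was higher, with a median of -0.98 against 0.06, where 26.6% of all tested genes were called lower and 38.1% higher. The gene higher in both lines was AK4, a mitochondrial adenylate kinase, at 13.4 ± 0.891 FPKM in KO1, 11 ± 0.315 in KO2 and 6.99 ± 0.394 in WT (log2 fold change 0.85 ± 0.06 in KO1, limma adjusted p = 7.11e-07, and 0.59 ± 0.06 in KO2, adjusted p = 1.52e-05). Between the edited lines, 6 of the 22 were higher and 7 lower in KO2 than in KO1. Both shares lay above those of all tested genes, 18.3% higher and 12.4% lower, without a test of it. KO1 and KO2 share the WT libraries, so their counts against WT are not independent of each other.

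The leukocyte surface, adhesion and adaptor genes ranged from 3.15 to 161 FPKM in WT, with a median of 15.7% of WT left in KO1 and 21.8% in KO2. FYB, the adaptor ADAP that links the T-cell receptor to integrins, had 24.4, 25.7 and 25.5 FPKM in KO1, 31.7, 27.9 and 27.7 in KO2, and 174, 159 and 149 in WT. ITGAL, the alpha chain of the integrin LFA-1 through which lymphocytes adhere, had 4.13, 4.43 and 4.14 FPKM in KO1, 8.87, 9.36 and 8.91 in KO2, and 38.8, 39.3 and 39.0 in WT. For both, every KO2 library was above every KO1 library, by a small margin for FYB and at 2.14 times the KO1 mean for ITGAL. JAM3, a junctional adhesion molecule, had 37.8, 37.6 and 36.3 FPKM in KO1, 43.7, 39.9 and 35.6 in KO2, and 132, 133 and 118 in WT, and its edited lines overlapped.

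Surface receptors differed in how far the edited lines lay apart. CD48, a ligand of the natural killer receptor CD244, had 13.4, 12.4 and 13.5 FPKM in KO1, 30.1, 29.3 and 28.9 in KO2, and 123, 103 and 92.0 in WT. CD69, an early marker of lymphocyte activation, had 0.801, 0.849 and 0.420 FPKM in KO1, 2.7, 2.01 and 1.78 in KO2, and 13.2, 12.3 and 11.6 in WT. In both, all KO1 libraries were lowest, all KO2 libraries intermediate and all WT libraries highest. CD27, a costimulatory receptor of the TNF receptor family, had 0.262, 0.208 and 0.345 FPKM in KO1, 0.735, 0.404 and 0.364 in KO2, and 2.72, 3.60 and 3.88 in WT, with KO2 replicate 3 just above the highest KO1 library. MAL, a proteolipid of membrane rafts that takes part in bringing the kinase LCK to the T-cell surface, had 5.41, 4.70 and 2.88 FPKM in KO1, 5.33, 5.03 and 4.33 in KO2, and 42.2, 55.7 and 51.5 in WT, and KO1 and KO2 overlapped.

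The remaining members of the group had WT means of at most 13.4 FPKM. LY96, the partner protein of the endotoxin receptor TLR4, varied widely between edited libraries, with 4.30, 2.48 and 2.39 FPKM in KO1, 1.71, 3.32 and 5.58 in KO2 and 13.7, 13.3 and 13.1 in WT. ADGRG1, an adhesion G protein-coupled receptor, was left at 7.63% of WT in KO1 and 13.7% in KO2, and ARHGAP25, a leukocyte GTPase-activating protein for Rac, at 24.0% of WT in KO1 and 29.2% in KO2. SEMA4A, a semaphorin, was left at 27.7% of WT in KO1 and 26.9% in KO2. C10orf54, now named VSIR and encoding the inhibitory ligand VISTA, was left at 24.1% of WT in KO1 and 21.4% in KO2, and the adaptor SH2D3C at 23.6% of WT in KO1 and 21.8% in KO2. Without the 78 and without THEMIS and CD4, the list of T-lineage and T-cell receptor pathway genes held 21 lower and 9 higher of 35 tested in KO1, and 19 lower and 9 higher in KO2, with median log2 fold changes of -0.29 and -0.19, beside the 31.9% lower and 35.6% higher of all tested genes in KO1 and the 26.6% and 38.1% in KO2. The adhesion and homing list held 12 lower and 10 higher of 23 in KO1 and 10 lower and 8 higher in KO2, with medians of -0.24 and -0.11. Both lists had shares of lower calls above those of all tested genes, without a test of it. In KO1 the adhesion list also had a share of higher calls above that of all tested genes, so its excess there was not in a single direction.

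**Figure D3:**
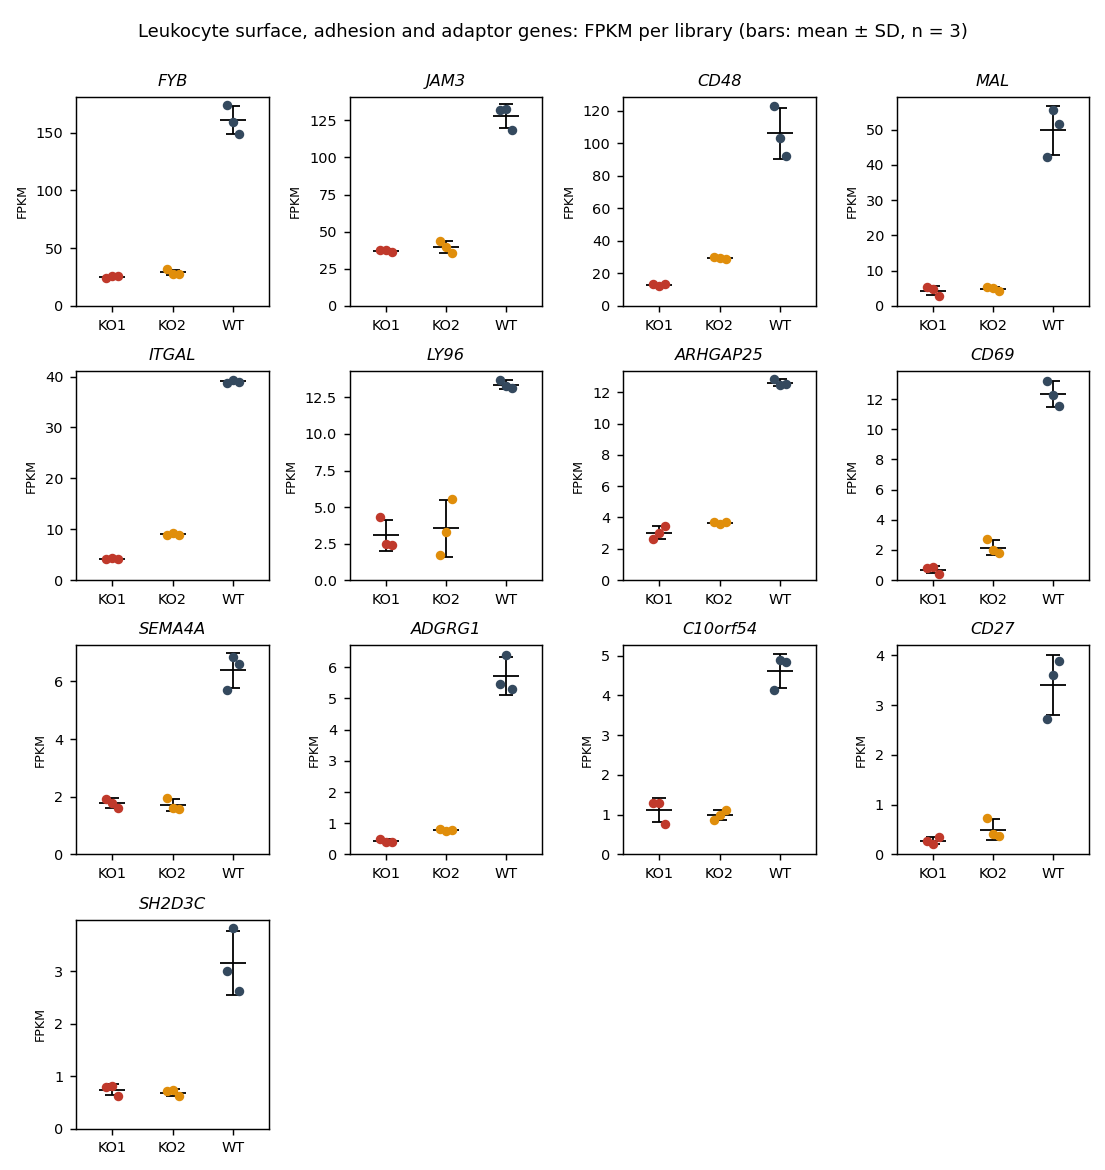
FPKM of the 13 leukocyte surface, adhesion and adaptor genes in each library (points), with the mean ± SD of 3 libraries per group, for KO1, KO2 and WT from left to right. CD48, ITGAL and CD69 form 3 separate levels with KO1 lowest, whereas JAM3, SEMA4A and SH2D3C have overlapping KO1 and KO2 points.

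Among receptors, kinases and transcription factors, MKNK2, a kinase that phosphorylates the translation factor eIF4E downstream of ERK and p38, had 24.5, 26.1 and 24.4 FPKM in KO1, 26.8, 28.6 and 26.4 in KO2, and 118, 134 and 116 in WT. GNA15, a G protein alpha subunit of blood cells that activates phospholipase C, had 33.5, 33.1 and 27.6 FPKM in KO1, 31.6, 34.0 and 30.2 in KO2, and 94.6, 105 and 97.8 in WT. The edited lines lay next to each other for both, with KO2 marginally above KO1 in every library for MKNK2 and overlapping for GNA15. TSHR, the receptor of thyroid-stimulating hormone, had 3.73, 2.33 and 2.32 FPKM in KO1, 2.40, 1.38 and 1.13 in KO2, and 32.8, 28.1 and 27.3 in WT, with KO1 replicate 1 the highest edited library and KO2 replicate 1 within the KO1 range. CASP10, an initiator caspase of death receptor signalling, had 1.11, 0.935 and 1.02 FPKM in KO1, 0.438, 0.384 and 0.762 in KO2, and 2.92, 3.81 and 2.99 in WT, and KO1 lay above KO2 in every library.

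PIK3IP1, a transmembrane inhibitor of PI3 kinase, was among the genes left lowest, with 0.493, 0.180 and 0.318 FPKM in KO1, 0.228, 0.419 and 0.113 in KO2, and 3.58, 3.50 and 3.55 in WT. PLCL1, a catalytically inactive relative of phospholipase C, was left at 13.3% of WT in KO1 and 9.78% in KO2, and the ETS transcription factor ETV5 at 11.2% of WT in KO1 and 17.5% in KO2. NOTCH3, a Notch receptor, was left at 22.9% of WT in KO1 and 25.7% in KO2, RGS9, a GTPase-activating protein for G proteins known from photoreceptors and striatum, at 13.4% of WT in KO1 and 24.3% in KO2, and the zinc finger protein ZBTB25 at 28.6% of WT in KO1 and 30.7% in KO2. MOB3A, of the MOB family of kinase adaptors, was left at 28.8% of WT in KO1 and 30.7% in KO2 and is the direct neighbour of MKNK2 in RefSeq gene order. Among the 75 members that could be placed, this was the only pair within 5 genes of each other. PLCXD1 was left at 26.0% of WT in KO1 and 32.1% in KO2.

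The wider lists behind these members were divided. They are read beside the shares of all tested genes, 31.9% lower and 35.6% higher in KO1 and 26.6% lower and 38.1% higher in KO2. Of 17 tested genes of ERK feedback and the immediate early response outside the 78 and without EGR1, 9 were lower and 3 higher in KO1, with the same counts in KO2 and median log2 fold changes of -0.29 in KO1 and -0.26 in KO2. The ubiquitin-editing enzyme gene TNFAIP3 stood at 6.28 ± 0.598 FPKM in KO1, 10.3 ± 0.772 in KO2 and 28.9 ± 1.47 in WT. SPRY2, a feedback inhibitor of receptor kinase signalling, went the other way, at 4.81 ± 0.396 FPKM in KO1, 5.06 ± 0.236 in KO2 and 1.69 ± 0.375 in WT. Of 21 genes of G protein and cyclic nucleotide signalling, 4 were lower and 12 higher in KO1, with the same counts in KO2 and medians of 0.30 and 0.40. FOXO-regulated genes without IL7R and TP53INP1 were 9 lower and 10 higher of 24 in KO1 and 10 lower and 8 higher in KO2, with medians of 0.07 and -0.07. Cytokine receptor and JAK-STAT genes without IL7R were 11 lower and 12 higher of 26 in KO1 and 8 lower and 9 higher in KO2, with medians of -0.01 and 0.05. The KO1 shares of the FOXO list and the KO2 shares of the cytokine list lay near those of all tested genes.

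The neuronal and ion transport group held the most abundant member of all. NRN1, encoding neuritin, a membrane-anchored protein that promotes neurite growth, had 36.1, 36.4 and 34.5 FPKM in KO1, 43.8, 45.2 and 41.1 in KO2, and 229, 218 and 189 in WT. Every KO2 library was above every KO1 library. RAB33A, a small GTPase of vesicle traffic, had 14.2, 13.2 and 12.7 FPKM in KO1, 12.0, 9.55 and 9.20 in KO2, and 45.2, 44.9 and 42.1 in WT, in the opposite order. FXYD2, a regulatory subunit of the sodium-potassium pump, was left at 21.5% of WT in KO1 and 29.1% in KO2.

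SCN3A, the alpha subunit of a voltage-gated sodium channel, had 0.600, 0.635 and 0.564 FPKM in KO1, 1.86, 1.62 and 1.84 in KO2, and 6.96, 6.35 and 6.64 in WT. CDHR1, a cadherin-related protein of photoreceptors, had 0.886, 0.717 and 0.897 FPKM in KO1, 0.434, 0.372 and 0.397 in KO2, and 6.30, 6.16 and 5.95 in WT. The channel gene lay higher in every KO2 library than in any KO1 library, and the cadherin gene lower. CHRNA3, a subunit of nicotinic acetylcholine receptors, was left at 20.1% of WT in KO1 and 29.3% in KO2, and PPFIA4, a liprin scaffold of the presynapse, at 15.4% of WT in KO1 and 11.9% in KO2. CPLX1, a complexin that acts on vesicle fusion, averaged 0.224 ± 0.180 FPKM in KO1, 0.463 ± 0.208 in KO2 and 3.43 ± 0.146 in WT (SD, n = 3 each), with KO1 values spread from 0.0406 to 0.400 FPKM.

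In the organelle group, POLG, the catalytic subunit of the mitochondrial DNA polymerase, had 27.6, 26.2 and 24.7 FPKM in KO1, 30.2, 30.1 and 26.4 in KO2, and 129, 138 and 128 in WT. EDEM1, which directs misfolded glycoproteins of the endoplasmic reticulum to degradation, had 29.5, 31.0 and 29.9 FPKM in KO1, 31.3, 29.3 and 29.0 in KO2, and 119, 112 and 125 in WT. The edited lines overlapped for both genes and their means were within 1.10 times of each other. Autophagy genes here were weaker: KIAA0226L, a regulator of autophagosome maturation, was left at 15.3% of WT in KO1 and 26.0% in KO2, WIPI1, a phosphoinositide-binding protein of early autophagosomes, at 23.8% of WT in KO1 and 26.7% in KO2, ATG9B at 31.3% of WT in KO1 and 24.3% in KO2, and the autophagy receptor OPTN at 33.2% of WT in KO1 and 31.2% in KO2. ANKZF1, which releases stalled chains during ribosome quality control, was left at 19.4% of WT in KO1 and 21.2% in KO2, and TMEM107, of the transition zone of cilia, at 31.4% of WT in KO1 and 33.2% in KO2. Of the genes inducible by interferon or retinoids, RARRES3 averaged 1.14 ± 0.297 FPKM in KO1, 1.85 ± 0.900 in KO2 and 8.47 ± 0.380 in WT, the RNA exonuclease ISG20 0.969 ± 0.315 FPKM in KO1, 1.00 ± 0.464 in KO2 and 4.66 ± 0.586 in WT, and IFI35 0.912 ± 0.190 FPKM in KO1, 1.08 ± 0.307 in KO2 and 3.31 ± 0.839 in WT (SD, n = 3 each), all with overlapping edited lines.

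The 11 long non-coding RNAs had WT means from 3.84 to 21.2 FPKM, of which 7.62% to 26.3% was left in KO1 and 10.3% to 32.7% in KO2. OLMALINC was the most abundant in WT, and ZNF436-AS1, LINC01226, FOXD2-AS1, LINC01225, LINC01237, ITGB2-AS1, LINC01251, LOC102723927, ALMS1-IT1 and TCONS_00029157 followed. LINC01226 had 1.18, 0.530 and 0.428 FPKM in KO1, 0.856, 1.09 and 0.944 in KO2, and 7.92, 10.2 and 9.96 in WT, and LINC01225 had 0.601, 0.160 and 0.479 FPKM in KO1, 0.424, 0.697 and 0.839 in KO2, and 3.93, 4.88 and 6.42 in WT. The spans of these genes overlap on the same strand in GENCODE, so reads may be shared between them and they may not be separate observations.

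Of the 12 other genes, 3 were left at the lowest shares of their WT level. C10orf107 had 1.53, 1.33 and 1.25 FPKM in KO1, 2.89, 3.36 and 3.25 in KO2, and 34.5, 30.9 and 28.2 in WT. GCSAM, a signalling and motility protein known from germinal centre B cells, had 0.311, 0.0771 and 0.176 FPKM in KO1, 0.374, 0.394 and 0.398 in KO2, and 7.07, 6.93 and 6.37 in WT. All KO2 libraries lay above all KO1 libraries for both. CSAG1, a cancer-testis antigen, had 0.151, 0.161 and 0 FPKM in KO1, is listed at 0 in all 3 KO2 libraries, and had 3.28, 4.16 and 2.13 in WT; a listed 0 can be a failed estimate, and no fold is given. SPINK2, a serine protease inhibitor, had 1.40, 0.186 and 0.971 FPKM in KO1, 2.28, 1.58 and 2.42 in KO2, and 12.5, 10.4 and 10.6 in WT, with KO1 replicate 2 far below the other KO1 libraries. C20orf197, PXYLP1, PLAC8, BEND5, SH3D21, TCP11L2, TRANK1 and GCNT4 complete the set, with WT means of 3.62 to 55.0 FPKM.

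The thresholds cut through a continuous range. Just inside the ratio lay TMEM107, OPTN and IFI35, with 33.2%, 33.2% and 32.8% of WT in the line that kept more, and just outside lay LOC100130872, LGALS9 and XPNPEP2, with 33.9%, 34.1% and 34.2%. Just inside the level lay SH2D3C, CSAG1 and CASP10, with WT means of 3.15, 3.19 and 3.24 FPKM, and just outside lay CCRL2, SCARNA15 and PCAT6, with 2.95, 2.94 and 2.94.

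Some members overlap other genes in GENCODE (GRCh38), and without knowledge of strand in the counting their reads could be shared. Of 77 members placed, 19 were listed with an overlapping gene that reached 1 FPKM in a group, 17 on the opposite strand and 3 on the same. LINC01226 was counted only as the partner of LINC01225 and is not among the 19. Several partners did not follow the member: FANCI, opposite POLG, averaged 72.8 ± 3.90 FPKM in KO1, 70.5 ± 2.01 in KO2 and 70.6 ± 1.30 in WT, and CHRNA5, opposite CHRNA3, averaged 11.2 ± 0.373 FPKM in KO1, 8.66 ± 0.474 in KO2 and 4.25 ± 0.413 in WT. CKAP4, opposite TCP11L2, averaged 20.5 ± 0.592 FPKM in KO1, 12.7 ± 0.661 in KO2 and 2.47 ± 0.267 in WT. CEP128, opposite TSHR, was low together with it, at 3.48 ± 0.0994 FPKM in KO1, 5.44 ± 0.108 in KO2 and 15.8 ± 0.586 in WT. Others lay below their WT level too, with smaller gaps or wide errors: PIK3IP1-AS1, opposite PIK3IP1, averaged 0.113 ± 0.195 FPKM in KO1, 0.409 ± 0.452 in KO2 and 1.64 ± 1.21 in WT, CD27-AS1 was left at 36.4% of WT in KO1 and 52.1% in KO2, IZUMO4, opposite MOB3A, at 42.6% of WT in KO1 and 50.1% in KO2, and ZNF436, opposite ZNF436-AS1, at 62.8% of WT in KO1 and 63.0% in KO2. ALMS1, which contains ALMS1-IT1, averaged 9.27 ± 0.288 FPKM in KO1, 8.97 ± 0.597 in KO2 and 8.78 ± 0.519 in WT.

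**Figure D4:**
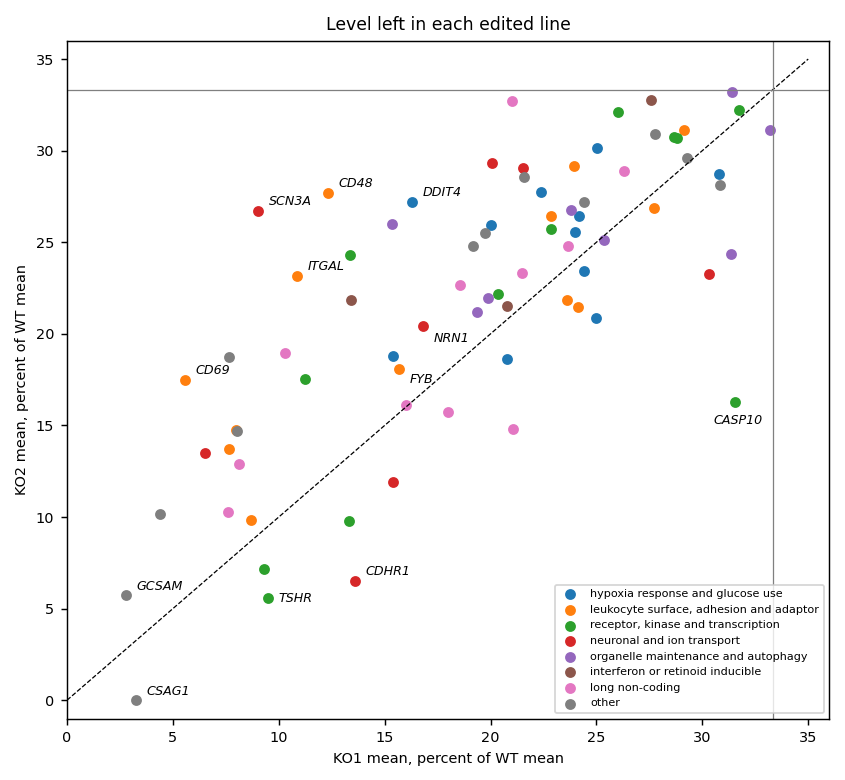
Mean level left in KO2 (vertical axis) against KO1 (horizontal axis), each as a percentage of the WT mean, for the 78 genes coloured by role group, with the diagonal dashed and the thresholds of the choice as grey lines. More points lie above the diagonal than below it (57 against 21), and CD48, SCN3A, ITGAL and CD69 stand farthest above it, with CASP10 farthest below.

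KO2 was then tested against KO1. All 78 genes passed the filter of 1 FPKM in 3 or more of the 9 libraries, and 60 also passed it on the edited libraries alone. In limma on log2(FPKM + 1), 19 of the 78 genes (24.4%) were higher in KO2 than in KO1 and 5 (6.41%) were lower, at a Benjamini-Hochberg adjusted p under 0.05. Over all 11737 tested genes, 18.3% were higher and 12.4% were lower. The other 18 members passed the filter only with the WT libraries, where the choice makes them high. With filter and fit on the edited libraries alone, 18 of 60 members (30.0%) were higher and 2 (3.33%) lower, beside 20.0% and 13% of the 11493 genes then tested, and no test was made of these shares. The all-gene split depends on scaling: 2146 genes were higher and 1450 lower in the main analysis, 1654 and 1799 after median centring and 1783 and 1854 after quantile normalization, when the members gave 15 and 5, and 19 and 5. The median log2 difference was 0.12 for the members and 0.04 for all tested genes. KO2 means were above KO1 means for 57 members (73.1%) and 58.2% of all tested genes. Every KO2 library lay above every KO1 library for 27 members, the reverse held for 7, and 44 overlapped, beside 28.7% and 18.7% of all tested genes in the first and second class.

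On this scale the largest difference was in CD48, at 29.4 ± 0.632 FPKM in KO2 and 13.1 ± 0.568 in KO1 (SD, n = 3 each), a log2 difference of 1.11 ± 0.09 (SE; limma adjusted p = 8.46e-06). ITGAL followed with 0.94 ± 0.05, limma adjusted p = 5.67e-07, and CD69 with 0.90 ± 0.13, limma adjusted p = 0.00045, a KO2 mean 3.13 times the KO1 mean. These 3 surface genes kept more of their WT level in KO2. By the ratio of KO2 to KO1 means CD48 (2.25) came after CD69, SCN3A (2.96), SPINK2 (2.45) and C10orf107 (2.32). C10orf107 differed by 0.82 ± 0.09, limma adjusted p = 6.54e-05. SCN3A differed by 0.79 ± 0.07, limma adjusted p = 2.96e-05, and SPINK2 by 0.79 ± 0.22, limma adjusted p = 0.02, a call lost without KO2 replicate 1 (0.74, adjusted p = 0.0634) or KO2 replicate 3 (0.71, adjusted p = 0.0672). DDIT4 was the hypoxia-response gene with the largest difference, at 33.7 ± 6.39 FPKM in KO2 and 20.2 ± 0.992 in KO1 (log2 difference 0.70 ± 0.11, limma adjusted p = 0.000851). C20orf197 differed by 0.64 ± 0.11, limma adjusted p = 0.00148.

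Further genes passed with smaller differences, and are named because they passed. KIAA0226L was higher in KO2 by 0.57 ± 0.11, RGS9 by 0.47 ± 0.10, FOXD2-AS1 by 0.43 ± 0.11, FXYD2 by 0.40 ± 0.09, CHRNA3 by 0.37 ± 0.09 and ADGRG1 by 0.31 ± 0.09 on the log2 scale. SLC16A3 (0.28 ± 0.09), NRN1 (0.27 ± 0.07), PLCXD1 (0.26 ± 0.08), P4HA1 (0.26 ± 0.07) and FYB (0.20 ± 0.06) had the smallest differences that passed. Of the 19, 12 had a KO2 mean at least 1.5 times the KO1 mean and 6 at least 2 times. The log2(FPKM + 1) scale understates the difference of genes near or below 1 FPKM, such as ADGRG1 with a KO2 mean 1.80 times that of KO1. Several of these calls depended on single libraries. ADGRG1 was lost without KO1 replicate 2 or 3 or KO2 replicate 1 (adjusted p = 0.0525 to 0.0613) and passes the expression filter only with its WT libraries, so that it was not tested on the edited libraries alone or when a WT library was left out. FOXD2-AS1 was lost without KO1 replicate 2 or 3 or KO2 replicate 2 (adjusted p = 0.0532 to 0.0597). P4HA1 was lost without KO1 replicate 1 or 2 or KO2 replicate 1 or 2 (0.0626 to 0.0968), and PLCXD1 without KO1 replicate 1 or 2 or KO2 replicate 2 or 3 (0.0618 to 0.13). SLC16A3 was lost without KO1 replicate 1, 2 or 3 or KO2 replicate 1 or 2 (0.0607 to 0.126), and FYB without KO1 replicate 1, 2 or 3, KO2 replicate 1 or 2 or WT replicate 2 (0.0548 to 0.149).

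The 5 genes lower in KO2 than in KO1 came from different groups. TSHR averaged 1.64 ± 0.674 FPKM in KO2 and 2.79 ± 0.808 in KO1 (-0.53 ± 0.18, limma adjusted p = 0.0457), a call close to the threshold with overlapping libraries that was lost without KO1 replicate 1, KO1 replicate 2, KO2 replicate 2, KO2 replicate 3, WT replicate 2 or WT replicate 3 (adjusted p = 0.054 to 0.153). CASP10 differed by -0.41 ± 0.12, limma adjusted p = 0.0218, and was lost without KO1 replicate 1 or 3 or KO2 replicate 1 or 2 (adjusted p = 0.0552 to 0.0813). It passes the expression filter only with its WT libraries and was not tested on the edited libraries alone. CDHR1 averaged 0.401 ± 0.0311 FPKM in KO2 and 0.833 ± 0.101 in KO1 (-0.39 ± 0.08, limma adjusted p = 0.00367), and RAB33A averaged 10.2 ± 1.52 FPKM in KO2 and 13.4 ± 0.795 in KO1 (-0.36 ± 0.09, limma adjusted p = 0.00969). CDHR1 likewise passes the filter only with its WT libraries and falls out of the test when any WT library is left out. PDK1 averaged 14.7 ± 1.05 FPKM in KO2 and 17.6 ± 0.891 in KO1 (-0.25 ± 0.07, limma adjusted p = 0.025), a call lost without KO1 replicate 2 or 3 or KO2 replicate 2 or 3 (adjusted p = 0.057 to 0.0917). With these, the count of genes lower in KO2 was 2 to 4 when 1 library was left out.

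By role group, KO2 was higher than KO1 for 5 and lower for none of 13 leukocyte genes, higher for 4 and lower for 2 of 8 neuronal and ion transport genes, and higher for 3 and lower for 1 of 11 hypoxia and glucose genes. Receptors, kinases and transcription factors gave 2 higher and 2 lower of 12, the 12 other genes 3 higher, the 11 long non-coding RNAs 1 higher and the 8 organelle genes 1 higher. The other 54 members did not pass, which does not show that they were equal: BNIP3, for example, differed by 0.26 ± 0.11, limma adjusted p = 0.0906, HILPDA by 0.28 ± 0.11, limma adjusted p = 0.0773, EDEM1 by -0.01 ± 0.05, limma adjusted p = 0.861 and ARHGAP25 by 0.22 ± 0.08, limma adjusted p = 0.0501. The 3 genes inducible by interferon or retinoids were among those that did not pass. In the lists without the 78 and the genes left out by name, KO2 was higher than KO1 for 9 and lower for 4 of 35 T-lineage and T-cell receptor genes, higher for 8 and lower for 5 of 23 adhesion genes, and higher for 3 and lower for none of 17 ERK feedback genes. It was higher for 5 and lower for 8 of 21 G protein genes, higher for 2 and lower for 6 of 24 FOXO-regulated genes, and higher for 6 and lower for 6 of 26 cytokine receptor genes. These stand beside 18.3% higher and 12.4% lower over all tested genes, and the share of lower T-lineage genes lay near that of all genes.

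**Figure D5:**
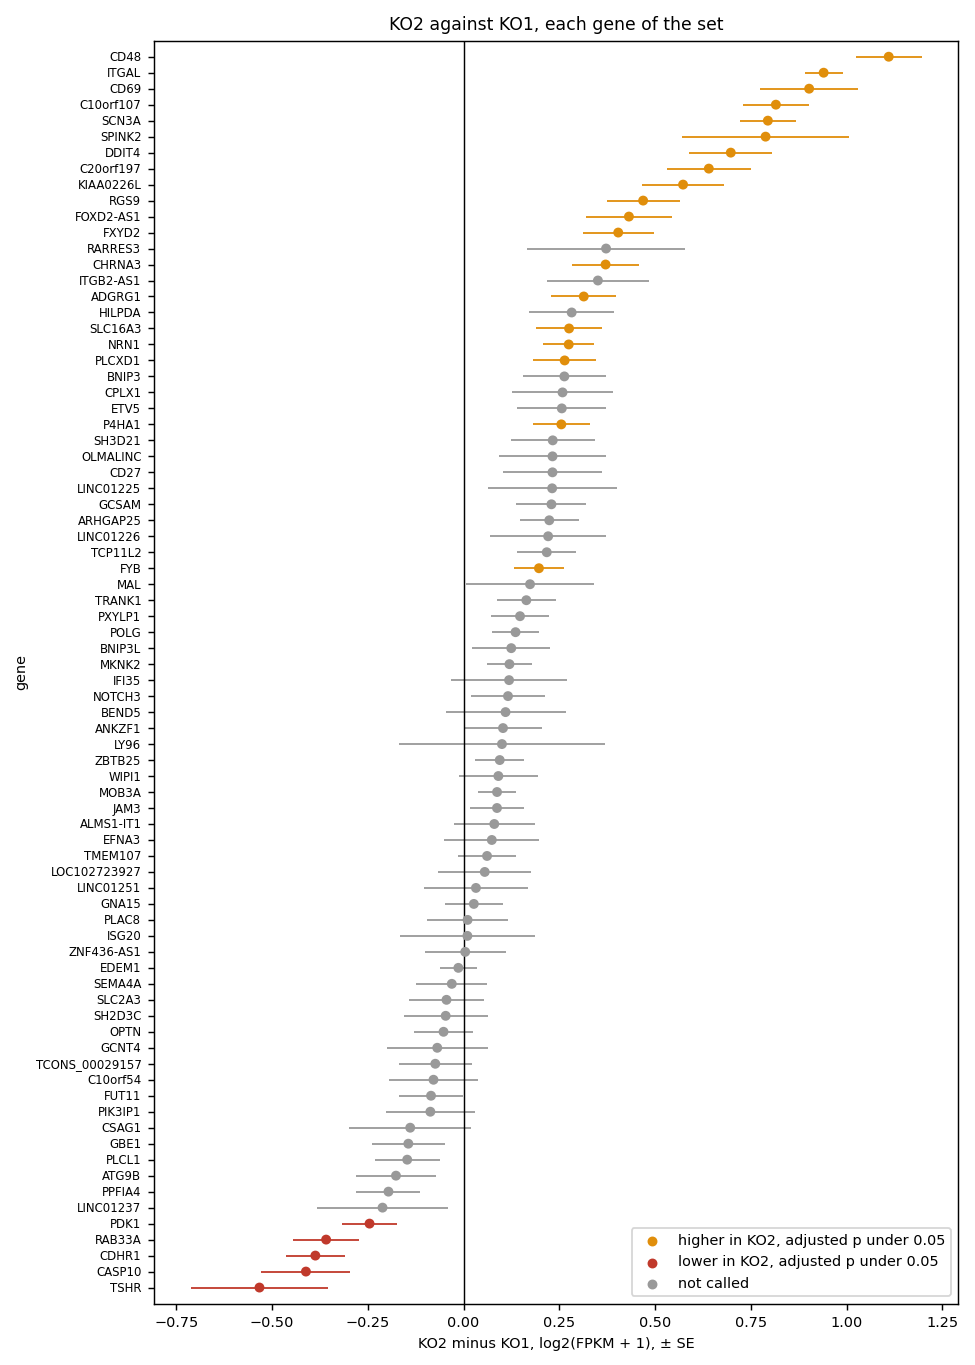
Difference between the edited lines for each of the 78 genes, KO2 minus KO1 on the log2(FPKM + 1) scale, with points for the estimate and bars for ± 1 SE of the limma fit. The 19 genes called higher in KO2 reach 1.11 (CD48), the 5 called lower reach -0.53 (TSHR), and the other 54 are grey.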

How the data were processed

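RNA of the 9 libraries was prepared with an mRNA kit, per the labels, and the authors deposited FPKM values per gene symbol in 1 table. The submitters' processing notes name STAR 2.5.0b, Cufflinks 2.2.1, bedtools 2.7.0 and hg19. Not given in the sources used here are the annotation, the strandedness of counting and any library scaling. Of 26228 rows, 38 hold text and were left out, and 28 carry names turned into dates. FPKM are not counts, so log2(FPKM + 1) values computed from the deposited table entered limma (version 3.58.1, R 4.3.3) with a mean-variance trend and each group's mean as a term, over all 9 libraries and the 11737 genes at 1 FPKM or more in 3 libraries. P-values were adjusted over all tested genes. The fit was tested on simulated data. The members, the 7 pathway lists and the role groups were chosen with earlier results of these data known. Named members were the 10 highest in WT, the 10 left lowest, up to 8 per direction between the edited lines, list members, those at the thresholds and up to 4 more per role; non-members were the 2 strongest per list and direction in KO1. Alternatives covered scaling, filters, pseudocounts, moderation, a replicate block and leaving out each library. GENCODE v29 and RefSeq, both on GRCh38, served only for names, order, overlaps and promoter sequences. Of the genes in the cell type marker lists, 1 is not reported here. Depth in reads is unknown, so no counting interval is given.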

Additional observations from a re-analysis of the deposited data

Results flagged for a closer look

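For 24 of the 78 genes the fall below WT differed in size between the edited lines, by the limma test of KO2 against KO1, which is the test of that difference because both share the WT libraries. By direction, 24.4% of the 78 were higher and 6.41% lower in KO2, beside 18.3% and 12.4% of all 11737 tested genes. Of the 24, ADGRG1, CASP10 and CDHR1 entered the test only through the WT libraries, where the choice makes them high. On the edited libraries alone, TSHR was lost too, and 18 of 60 members were higher and 2 lower. These counts stand beside 20.0% and 13% of the 11493 genes then tested. A difference between the edited lines is thus not particular to these genes. On the log2(FPKM + 1) scale, KO2 minus KO1 was 1.11 for CD48, 0.94 for ITGAL and 0.90 for CD69, with 3 of 3 KO2 libraries above all KO1 libraries in each. It was 0.82 for C10orf107, 0.79 for SCN3A, 0.79 for SPINK2, 0.70 for DDIT4 and 0.64 for C20orf197, again with no overlap. Smaller positive differences, also without overlap, were 0.57 for KIAA0226L, 0.47 for RGS9, 0.43 for FOXD2-AS1, 0.40 for FXYD2, 0.37 for CHRNA3, 0.31 for ADGRG1, 0.28 for SLC16A3, 0.27 for NRN1, 0.26 for PLCXD1, 0.26 for P4HA1 and 0.20 for FYB. It was -0.53 for TSHR, whose libraries overlapped, -0.41 for CASP10, -0.39 for CDHR1, -0.36 for RAB33A and -0.25 for PDK1, with 3 of 3 KO2 libraries below all KO1 libraries in the last 4.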

How the results depend on the processing

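The number of genes chosen was 78, 227 with a ratio of 1/2 and 41 with a ratio of 1/4; leaving out 1 library at a time gave 73 to 87. The count higher in KO2 than in KO1 was 19, and 13 to 23 over all alternatives (13 to 22 leaving out 1 library). The count lower was 5; it was 2 when the filter and fit used the edited libraries alone, where TSHR was lost, CASP10 and CDHR1 were not tested and only 60 of the 78 genes remained in the test, and 2 to 4 leaving out 1 library. Without a filter on low values SPINK2, SLC16A3, PLCXD1, P4HA1, FYB and TSHR were lost, and after median centring FYB, P4HA1, PLCXD1 and SLC16A3. No direction reversed among the 24 called genes under the alternatives run. Same-numbered libraries deviated together only weakly (r from -0.29 to 0.32). With 3 libraries per group this does not settle whether the numbers pair the samples. With a replicate block the counts were again 19 and 5, PLCXD1 being lost, and all genes gave 1854 higher and 1281 lower. With 3 libraries per group and unknown depth, weak genes are the least certain.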

Other observations

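The members varied between libraries of the same group in a shared way. KO2 replicate 3 was the lowest KO2 library for 50 of the 78 genes (64.1%), against 33.8% of all tested genes, and WT replicate 3 was the lowest WT library for 40 (51.3%), against 30.5%. KO1 replicate 3 was the lowest KO1 library for 34 (43.6%, against 34.5%). Depth in reads is unknown, so relative depth was estimated from the ratios of very low FPKM values between libraries. By this estimate it was close, at 0.96 to 1.16 of WT replicate 3 over all 9, and the part of depth in this pattern was not tested. Without KO2 replicate 3, 22 of the 78 genes were higher in KO2 than in KO1, 17 of them among the 19 called with it.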
